A study of Mus musculus with 10 samples.

Results

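Slice microglia at 1 week in culture were compared with slice microglia at 1 day, to follow the early change of microglia after brain tissue is cut and placed on a culture membrane. The comparison used 4 of the 10 libraries of the series, 2 per time point, each library counting as 1 sample. Raw counts of unique molecular identifiers (UMIs, each standing for 1 captured transcript) were summed per library over cells with at most 5% mitochondrial UMIs, at least 400 genes and at most 30000 UMIs. These limits kept 1741 cells of the 19059 that passed in all libraries, with 1532 at 1 day and 209 at 1 week. All slices came from postnatal C57BL/6 pups, were cut coronally after the cerebellum and olfactory bulb had been removed, and were kept in a medium with horse serum and human PDGF, so that both groups shared strain, medium and sort, and no allele is given for either. Slices were pooled as needed, and the number of pups behind a library was not stated. The study calls the 2 libraries of a group independent samples, and in each group only replicate 1 was high in Xist while only replicate 2 held Y-linked Ddx3y, so the 2 libraries did not hold RNA of the same pups alone. The p-values come from 1 model of all 10 libraries, whose spread between the libraries of a group is shared by the 5 groups. Cells were isolated on ice, except for a Percoll density spin near room temperature, and sorted as live, CD11b high and CD45 intermediate. The 4 libraries carry a single study label.

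Microglia are the resident macrophages of the brain. Their adult identity depends on TGF-beta and on stimulation of the CSF1 receptor, and it is recognized by surface sensors such as the purinergic receptor P2ry12 and by Sall1, a transcription factor that among macrophages is largely restricted to microglia. After injury or isolation, microglia are known to lower these genes and to make chemokines, lipid droplets and stress proteins.

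The libraries differed in size. Slice 1 day replicates 1 and 2 held 518 and 1014 cells with 3661690 and 9539163 UMIs, and slice 1 week replicates 1 and 2 held 148 and 61 cells with 1080763 and 385373 UMIs. The study's own analysis used fewer than 61 cells in each of its 1 week samples, so the gap to the cells used here lies mostly in slice 1 week replicate 1. Its removal of outlying cells by t-SNE was not repeated here, and the part of the added cells in the differences was not tested. Median UMIs per cell lay between 6452.5 and 8335 in the 4 libraries. A count of 0 in both 1 week libraries allows up to 2.046 CPM (counts scaled to 1000000 UMIs; 3 counts over the group, counting error only), against 0.2273 CPM at 1 day. Barcodes shared between any of these libraries and another library numbered 0 to 6. The label was checked against 12 microglial markers, which summed to 10318 and 9276 CPM at 1 day and to 17636 and 20378 CPM at 1 week. Markers of neutrophils, whose S100a8 and S100a9 encode calprotectin, summed to 7946 and 23213 CPM at 1 day and to 41484 and 1033 CPM at 1 week, all 12 markers being present in the first 3 of these libraries and 5 in the last, where Ly6g was at 0. Cells with over 2% of their UMIs in these markers, called neutrophil-marker cells below, made up 13.13% and 10.85% of cells at 1 day and 16.22% and 1.64% at 1 week. In the remaining cells the same markers held a median of 0.063% and 0.455% of UMIs at 1 day and 0.586% and 0.011% at 1 week. Neuron markers summed to 56 and 23.2 CPM at 1 day and to 498 and 667 CPM at 1 week, and erythroid markers to 3466 CPM in slice 1 day replicate 1 and to at most 0.734 CPM elsewhere. Because counts were summed over sorted cells, fewer cells of a type and less RNA per cell cannot be told apart in the sums.

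Of 12157 genes tested, 597 were up-regulated and 638 down-regulated at 1 week at FDR < 0.05 and fold-change > 1.5, that is 4.91% and 5.25% of genes. The median log2 fold change over all genes was -0.006. These shares are the background for every count of a gene list below. Values of the 2 groups did not overlap for many more genes, 25.4% lying higher in both 1 week libraries than in either 1 day library and 30.9% lower. All 156 called genes covered by the naming rule belonged to those without overlap. The number of calls depended on the libraries: it was 349 higher and 371 lower without slice 1 day replicate 1, 128 and 140 without slice 1 day replicate 2, 104 and 114 without slice 1 week replicate 1, and 304 and 499 without slice 1 week replicate 2. In each of these fits 1 group had a single library, assumed to vary like the other groups. Counts of list members with 1 library left out are given in this order. Without cells carrying neutrophil, erythroid or neuron markers the counts were 581 higher and 706 lower. Cells with under 3 UMIs summed over replication and mitosis genes numbered 144 and 97 at 1 day and 37 and 22 at 1 week. Of these, 50, 41, 9 and 1 were neutrophil-marker cells. Their median depths of 3556, 3800, 3006 and 2013.5 UMIs were below those of all cells, so cycling and depth cannot be told apart by this cut. In these cells alone 7 genes were called higher and 10 lower, 1 identity gene being called, lower. The identity genes Tmem119, Selplg, Slc2a5, Cst3 and Crybb1 turned direction without a call. So did the genes Bambi, H2-DMb1, Il16, Nfkb1, mt-Co1, Hspa9, Psmd14 and Shmt2. Sall1 was at 0 in both 1 week libraries there, so that its fitted value gives no direction.

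**Figure D1:**
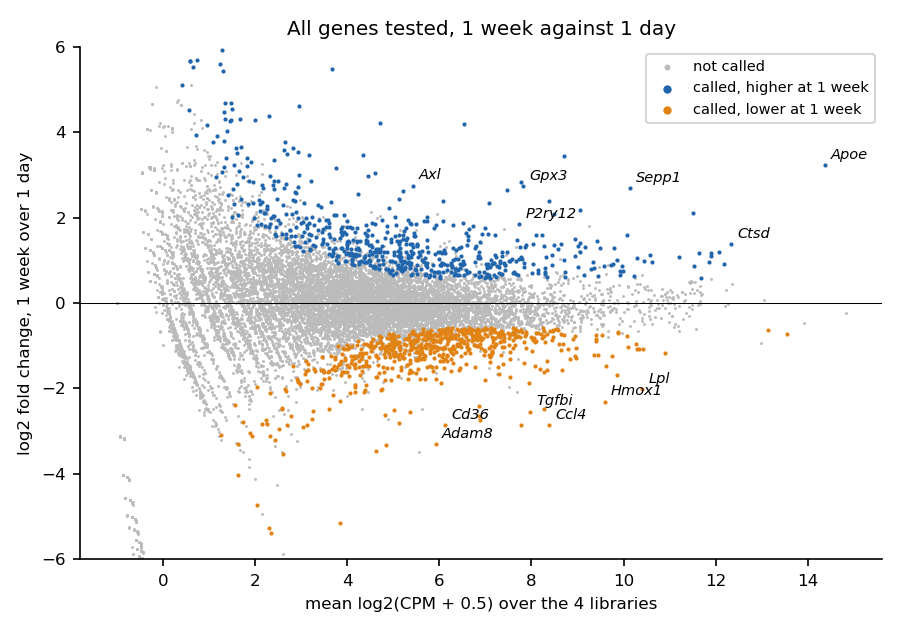
Each point is 1 of the genes tested, with mean log2(CPM + 0.5) over the 4 libraries on the horizontal axis and log2 fold change (1 week minus 1 day) on the vertical axis, called genes in color. The 597 up-regulated and 638 down-regulated genes spread over the whole range of levels, and 293 genes beyond 6 in either direction are not drawn.

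The largest rises at 1 week included the apolipoproteins Apoe and Apoc1, the selenoproteins Sepp1 and Gpx3 and the lipid-mediator enzymes Ltc4s and Hpgd. Apoe, the main lipid carrier made by glia, was at 7536 and 6352 CPM at 1 day and 65849 and 63891 CPM at 1 week, a 9.34-fold rise (log2 fold change 3.22, SE 0.23, adjusted p = 0.000221). Apoc1, a smaller apolipoprotein of the same gene cluster, was at 153 and 105 CPM at 1 day and 1088 and 1707 CPM at 1 week (log2 fold change 3.44, SE 0.49, adjusted p = 0.00361). Every 1 week library lay far above both 1 day libraries for each apolipoprotein. Sepp1, the selenium transport protein, was at 488 and 399 CPM at 1 day and 2638 and 3091 CPM at 1 week (log2 fold change 2.69, SE 0.16, adjusted p = 4.94e-05). Gpx3, the secreted glutathione peroxidase and itself a selenoprotein, was at 86.8 and 88 CPM at 1 day and 629 and 535 CPM at 1 week (log2 fold change 2.74, SE 0.28, adjusted p = 0.00154). Both selenoproteins were several times higher in each 1 week library than in either 1 day library. Ltc4s, the enzyme that makes leukotriene C4, was at 109.6 and 58.1 CPM at 1 day and 566 and 627 CPM at 1 week (log2 fold change 2.84, SE 0.27, adjusted p = 0.000977). Hpgd, which inactivates prostaglandins, was at 73.7 and 47.3 CPM at 1 day and 299 and 315 CPM at 1 week (log2 fold change 2.35, SE 0.32, adjusted p = 0.00334). Lyz2, the myeloid lysozyme, was at 1182 and 1702 CPM at 1 day and 7992 and 4490.4 CPM at 1 week (log2 fold change 2.11, SE 0.26, adjusted p = 0.0026), and its higher 1 week value belonged to the library with most neutrophil RNA. It was also called without neutrophil-marker cells, a setting that left neutrophil markers at 703 and 4605 CPM at 1 day and at 5889 and 159 CPM at 1 week, and the part of that RNA in the Lyz2 difference was not tested. The membrane proteins Tmem176a and Tmem176b rose by 2.65 and 2.39 on the log2 scale, the receptor partner Ramp1 by 2.63, and the arylsulfatase Arsb by 2.39. Ctla2a rose by 2.43, a call lost without slice 1 week replicate 1 (2.52). All of the 15 largest rises other than Ctla2a and Axl were called whichever library was left out.

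The largest falls included the proteases Adam8 and Mmp12 and the matrix protein Tgfbi, beside Cd36, Msr1, Ccl4, Ccl9, Hmox1 and Srxn1, which are described with their lists. Adam8, a membrane protease of activated myeloid cells, was at 204 and 186 CPM at 1 day and 21.7 and 15.4 CPM at 1 week, which is 9.93-fold lower (log2 fold change -3.31, SE 0.41, adjusted p = 0.0026). Tgfbi, an extracellular matrix protein, was at 629.6 and 589 CPM at 1 day and 118 and 87 CPM at 1 week (log2 fold change -2.54, SE 0.21, adjusted p = 0.000697). The groups were well apart for both. Lilr4b, an immunoglobulin-like receptor, was at 302 and 236 CPM at 1 day and 53.4 and 46.1 CPM at 1 week (log2 fold change -2.41, SE 0.23, adjusted p = 0.000977). Mmp12, the macrophage elastase, was at 985 and 612 CPM at 1 day and 178 and 20.5 CPM at 1 week (log2 fold change -2.86, SE 0.72, adjusted p = 0.0328). The 2 libraries at 1 week differed widely for Mmp12, and its call was lost without slice 1 day replicate 1, slice 1 day replicate 2 or slice 1 week replicate 2 (-2.46, -3.16 and -2.25). Cd74, the invariant chain of MHC class II, was at 338 and 251 CPM at 1 day and 50.4 and 40.9 CPM at 1 week (log2 fold change -2.65, SE 0.41, adjusted p = 0.00445), a call lost without slice 1 week replicate 1 (-2.86). The kinase Plk2 fell by 2.55 on the log2 scale, a call lost without slice 1 week replicate 1 (-2.72). Cdkn1a, the cell cycle inhibitor p21, was at 519 and 509 CPM at 1 day and 196 and 69.1 CPM at 1 week (log2 fold change -1.88, SE 0.38, adjusted p = 0.0129), a call lost without slice 1 day replicate 2 (-1.89).

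**Figure D2:**
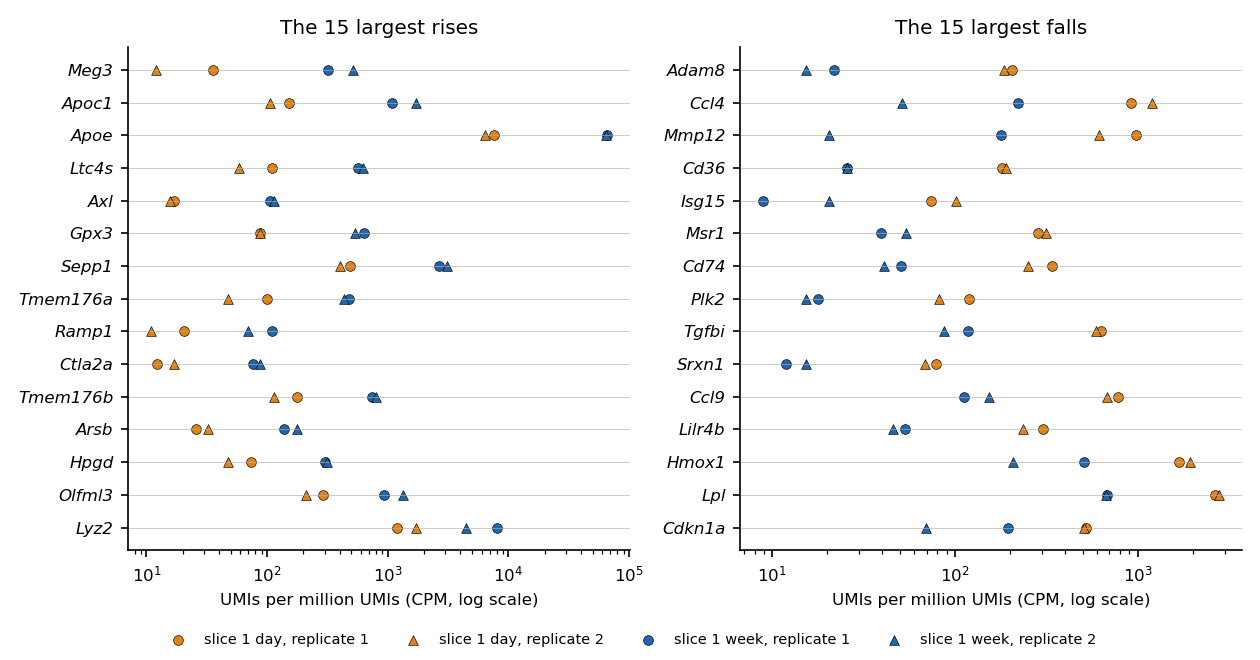
CPM (log axis) in each of the 4 libraries for the 15 largest rises and the 15 largest falls among called genes, points being libraries colored by time point. In every row the 1 day and 1 week points stand apart, and Apoe spans from 6352 to 65849 CPM.

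Of 39 genes of microglial identity tested, 21 were up-regulated and none down-regulated, with a median log2 fold change of 0.96, and the count was 19, 9, 9 and 11 with 1 library left out. Among the surface sensors, P2ry12, the ADP receptor that guides processes to injury, was at 155 and 77 CPM at 1 day and 426 and 402 CPM at 1 week (log2 fold change 1.84, SE 0.3, adjusted p = 0.00547). P2ry13, its neighbor in the purinergic family, was at 52.4 and 43.5 CPM at 1 day and 168 and 182 CPM at 1 week (log2 fold change 1.87, SE 0.21, adjusted p = 0.00233). Gpr34, a lysophosphatidylserine receptor, was at 191 and 154 CPM at 1 day and 484 and 563 CPM at 1 week (log2 fold change 1.6, SE 0.17, adjusted p = 0.00203). All 3 receptors were higher in each 1 week library than in either 1 day library. Cx3cr1, the receptor for neuronal fractalkine, rose from 479.6 and 498 to 863 and 869.9 CPM (log2 fold change 0.82, SE 0.16, adjusted p = 0.0124), and Tmem119 from 100.1 and 44.8 to 215 and 228 CPM (log2 fold change 1.62, SE 0.41, adjusted p = 0.0313). The 1 day replicates of Tmem119 differed from each other by over 1.5 times. Csf1r, the survival receptor of microglia, rose from 645 and 492 to 1283 and 1504 CPM (log2 fold change 1.29, SE 0.22, adjusted p = 0.00633), and Csf1, 1 of its ligands, fell from 51.6 and 49.8 to 31.6 and 15.4 CPM (log2 fold change -0.95, SE 0.25, adjusted p = 0.0394).

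Sall1 was at 15.2 and 12.1 CPM at 1 day and 51.4 and 51.2 CPM at 1 week (log2 fold change 1.94, SE 0.29, adjusted p = 0.00442), with close values within each group. Olfml3, a secreted protein of microglia, was at 293 and 212 CPM at 1 day and 939 and 1348 CPM at 1 week (log2 fold change 2.18, SE 0.26, adjusted p = 0.00251). The fructose transporter Slc2a5 was at 16.2 and 2.68 CPM at 1 day and 48.4 and 48.6 CPM at 1 week (log2 fold change 2.55, SE 0.68, adjusted p = 0.0396), the 1 day replicates being far apart. Selplg, the ligand of selectins, rose by 1.3 on the log2 scale, the cysteine protease inhibitor Cst3 by 1.18 and the crystallin Crybb1 by 1.93. P2ry13, Gpr34, Olfml3 and Ltc4s kept their calls whichever library was left out. P2ry12 lost its call without slice 1 week replicate 1 (1.78) and Sall1 without slice 1 week replicate 1 (1.92), both with values close to those of all libraries. Csf1r lost it without slice 1 day replicate 2 (1.1), Tmem119 without slice 1 day replicate 2, slice 1 week replicate 1 or slice 1 week replicate 2 (1.14, 1.65 and 1.5), Slc2a5 without slice 1 day replicate 2, slice 1 week replicate 1 or slice 1 week replicate 2 (1.57, 2.55 and 2.48) and Selplg without slice 1 day replicate 2, slice 1 week replicate 1 or slice 1 week replicate 2 (0.81, 1.38 and 1.13). Calls of Cx3cr1 were lost without any 1 of the 4 libraries (0.74 to 0.85), those of Csf1 without any 1 of the 4 libraries (-1.74 to -0.76), those of Cst3 without slice 1 day replicate 2, slice 1 week replicate 1 or slice 1 week replicate 2 (0.82, 1.27 and 0.97) and those of Crybb1 without slice 1 day replicate 2, slice 1 week replicate 1 or slice 1 week replicate 2 (1.38, 2.29 and 1.46). Without neutrophil-, erythroid- and neuron-marker cells, the number of identity genes called higher was also 21.

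Single complement and TGF-beta genes rose, and of those named C1qa, C1qb, C1qc and Tgfbr1 are also in the identity list. Of 18 complement genes tested, 4 rose and none fell, with a median log2 fold change of 0.59 and counts of 3, 2, 2 and 3 with 1 library left out. C1qa, a chain of the C1q recognition molecule that tags synapses and debris, was at 2990.3 and 2719 CPM at 1 day and 6134 and 7018 CPM at 1 week (log2 fold change 1.2, SE 0.17, adjusted p = 0.00359). C1qc rose from 2754 and 2466 to 5259 and 6036 CPM (log2 fold change 1.11, SE 0.15, adjusted p = 0.00333), and C1qb from 3537 and 3281 to 5872 and 6890.3 CPM (log2 fold change 0.9, SE 0.19, adjusted p = 0.0147). The call of C1qb was lost without any 1 of the 4 libraries (0.7 to 1.0) and that of the receptor C5ar2, which rose by 1.42 on the log2 scale, without slice 1 day replicate 2 or slice 1 week replicate 1 (1.09 and 0.78), and the other chains kept theirs. Of 22 TGF-beta signaling genes, 6 rose and 1 fell, with a median of 0.65 and 5, 1, 1 and 2 rises with 1 library left out. Tgfbr2, the ligand-binding receptor chain, was at 28.8 and 34.7 CPM at 1 day and 101 and 118 CPM at 1 week (log2 fold change 1.75, SE 0.21, adjusted p = 0.00251). Its partner Tgfbr1 was at 87.8 and 58.9 CPM at 1 day and 128 and 120.2 CPM at 1 week (log2 fold change 0.78, SE 0.2, adjusted p = 0.0348), and its call was lost without slice 1 day replicate 2, slice 1 week replicate 1 or slice 1 week replicate 2 (0.5, 0.7 and 0.73). Pmepa1, a feedback inhibitor induced by TGF-beta, was at 25.2 and 19.4 CPM at 1 day and 93.9 and 58.8 CPM at 1 week (log2 fold change 1.86, SE 0.31, adjusted p = 0.00608) and its call was lost without slice 1 day replicate 2 or slice 1 week replicate 1 (1.66 and 1.4). The pseudoreceptor Bambi was at low levels of 7.6 and 4.74 CPM at 1 day and 21.7 and 15.4 CPM at 1 week, and its call was lost without slice 1 day replicate 2, slice 1 week replicate 1 or slice 1 week replicate 2 (1.36, 1.37 and 1.81). Bmp2k rose by 0.97 on the log2 scale, a call lost without slice 1 day replicate 2, slice 1 week replicate 1 or slice 1 week replicate 2 (0.91, 1.05 and 0.81). Id2, an inhibitor of DNA-binding factors, was the member that fell, from 642 and 540.1 to 264 and 120.2 CPM (log2 fold change -1.57, SE 0.28, adjusted p = 0.00813). Smad3 and Smad7, the signal transducer and its antagonist, were not called, with log2 fold changes of 0.54 and 0.74.

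Of 48 lysosomal genes tested, 24 were up-regulated and none down-regulated, with a median log2 fold change of 0.63, and the count was 18, 6, 12 and 13 with 1 library left out. It was 24 without the marker cells. Ctsd, the aspartyl protease of lysosomes, was at 3448 and 3002 CPM at 1 day and 7535 and 9244 CPM at 1 week (log2 fold change 1.38, SE 0.19, adjusted p = 0.00342). Hexa, a hexosaminidase chain, was at 403 and 325 CPM at 1 day and 847 and 962 CPM at 1 week (log2 fold change 1.31, SE 0.16, adjusted p = 0.00251). Man2b1, a mannosidase, was at 181 and 136 CPM at 1 day and 517 and 440.1 CPM at 1 week (log2 fold change 1.6, SE 0.19, adjusted p = 0.00251). For these hydrolases the 1 week replicates both lay above the 1 day replicates, and the calls held with any 1 library left out. Glb1, the beta-galactosidase, was at 37.5 and 32.6 CPM at 1 day and 70.2 and 94.7 CPM at 1 week (log2 fold change 1.2, SE 0.2, adjusted p = 0.00589) and its call was lost without slice 1 day replicate 2 (1.09). Galc, which degrades the myelin lipid galactosylceramide, was at 12.8 and 10.6 CPM at 1 day and 33.6 and 28.1 CPM at 1 week (log2 fold change 1.46, SE 0.24, adjusted p = 0.00547) and its call was lost without slice 1 day replicate 2 or slice 1 week replicate 1 (1.3 and 1.27). Cathepsin H (Ctsh) rose by 1.41 on the log2 scale, a call lost without slice 1 day replicate 2, slice 1 week replicate 1 or slice 1 week replicate 2 (1.03, 1.51 and 1.19), and the membrane protein Lamp1 by 0.64, a call lost without any 1 of the 4 libraries (0.48 to 0.69). Ctsb, an abundant cathepsin, was at 4844 and 5119.5 CPM at 1 day and 4500.1 and 5245 CPM at 1 week, so the groups overlapped and it was not called (log2 fold change -0.03, SE 0.14, adjusted p = 0.926). Cd68, a lysosomal membrane protein of macrophages, was at 784 and 696 CPM at 1 day and 879 and 1011 CPM at 1 week and was not called (log2 fold change 0.35, SE 0.14, adjusted p = 0.154).

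Promoters of lysosomal genes were read from RefSeq (GRCm38.p6), 250 bases before to 50 after each gene start, and were available for 39 of the 48 genes and for 9168 (75.4%) of all tested genes. The CLEAR element, the site known to be bound by TFEB and related factors in lysosomal genes, was searched by its core CACGTGAC on both strands. It was present in 9 of the 39 (23.1%), against 4.94% of tested genes and 2.25% of 32851 promoters in the table. The median log2 fold change was 0.64 for members with the core and 0.68 for those without, which is given without a test. Both promoters below are shown because the genes rose and hold the core, which is in capitals, Ctsd (chr7:142387778-142388077, minus strand) holding 2 copies and Glb1 (chr9:114400828-114401127, plus strand) 1 copy on the opposite strand.
Ctsd: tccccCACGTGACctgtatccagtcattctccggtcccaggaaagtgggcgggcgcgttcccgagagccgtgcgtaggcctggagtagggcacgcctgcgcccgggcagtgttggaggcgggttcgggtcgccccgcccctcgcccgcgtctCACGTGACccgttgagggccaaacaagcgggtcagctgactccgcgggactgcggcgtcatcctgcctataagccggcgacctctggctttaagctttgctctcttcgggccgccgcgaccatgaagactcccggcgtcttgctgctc
Glb1: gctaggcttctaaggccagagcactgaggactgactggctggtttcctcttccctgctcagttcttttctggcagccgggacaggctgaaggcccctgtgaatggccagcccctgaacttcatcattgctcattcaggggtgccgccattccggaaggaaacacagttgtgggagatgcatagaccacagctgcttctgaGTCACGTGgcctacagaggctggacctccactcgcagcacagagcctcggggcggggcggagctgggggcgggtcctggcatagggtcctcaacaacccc

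Genes of disease-associated microglia, a state defined by lipid, phagocytic and lysosomal genes around plaques and dying cells, moved in both directions. Of 33 tested, 8 rose and 6 fell, and the median log2 fold change was -0.03. Rises and falls numbered 8 and 10 with the 4 libraries alone and 8 and 11 with 8 libraries of 1 study label. They were 8 and 12 without a filter on low counts and 7 and 3 with 61 cells per library. With 1 library left out there were 5, 5, 4 and 5 rises and 3, 4, 2 and 3 falls. Among the rises beside Apoe, Lyz2 and Ctsd, Axl, a receptor for phosphatidylserine on dying cells, was at 16.8 and 15.8 CPM at 1 day and 105 and 115 CPM at 1 week (log2 fold change 2.75, SE 0.43, adjusted p = 0.00503), a call lost without slice 1 week replicate 1 (2.81). Gpnmb, a lysosomal glycoprotein, was at 18.3 and 21.5 CPM at 1 day and 71.1 and 87 CPM at 1 week (log2 fold change 1.95, SE 0.27, adjusted p = 0.00428). Among the falls, Lpl, the lipase that frees fatty acids from lipoproteins, was at 2645 and 2795 CPM at 1 day and 677 and 668 CPM at 1 week (log2 fold change -2.02, SE 0.25, adjusted p = 0.0028). Plin2, which coats lipid droplets, was at 1687 and 1661 CPM at 1 day and 496 and 542 CPM at 1 week (log2 fold change -1.69, SE 0.16, adjusted p = 0.000977). The groups were clearly apart for both, each 1 week library lying under 0.5 of each 1 day library. Spp1, which encodes osteopontin, was at 10974 and 11538 CPM at 1 day and 5648 and 6056 CPM at 1 week and was not called (log2 fold change -0.94, SE 0.47, adjusted p = 0.234). Cst7, a cysteine protease inhibitor typical of this state, was at 27.5 and 28.3 CPM at 1 day and 42.5 and 81.9 CPM at 1 week and was not called (log2 fold change 1.06, SE 0.37, adjusted p = 0.0996), and Clec7a was at 0 in all 4 libraries.

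Scavenger and phagocytic receptors were likewise divided. Of 26 tested, 8 rose and 2 fell, with a median log2 fold change of 0.56, and 7, 2, 3 and 4 rose with 1 library left out. Cd36, a receptor for oxidized lipids, was at 181 and 190.1 CPM at 1 day and 25.7 and 25.6 CPM at 1 week, 7.24-fold lower (log2 fold change -2.86, SE 0.25, adjusted p = 0.000854). Msr1, the class A scavenger receptor, was at 284 and 315 CPM at 1 day and 39.5 and 53.7 CPM at 1 week (log2 fold change -2.74, SE 0.26, adjusted p = 0.000977). These 2 falls were called with any 1 library left out, and for Cd36 the replicates nearly coincided. In the other direction, Colec12, a scavenger receptor with a collectin domain, was at 26.5 and 23.8 CPM at 1 day and 72.1 and 76.8 CPM at 1 week (log2 fold change 1.56, SE 0.21, adjusted p = 0.00342). The apoptotic-cell receptor Mertk was at 27.3 and 18.8 CPM at 1 day and 50.4 and 87 CPM at 1 week (log2 fold change 1.51, SE 0.34, adjusted p = 0.0209), a call lost without slice 1 day replicate 2, slice 1 week replicate 1 or slice 1 week replicate 2 (1.24, 1.93 and 1.08), and the integrin chain Itgb5 rose by 1.36 on the log2 scale, a call lost without slice 1 day replicate 2, slice 1 week replicate 1 or slice 1 week replicate 2 (1.17, 1.51 and 1.09). Mrc1, the mannose receptor of border macrophages, was at 25.9 and 19.2 CPM at 1 day and 61.3 and 33.3 CPM at 1 week (log2 fold change 1.19, SE 0.32, adjusted p = 0.0398) and its call was lost without slice 1 day replicate 1, slice 1 day replicate 2 or slice 1 week replicate 1 (1.39, 0.96 and 0.56). The 11 border macrophage markers summed to 503, 420, 617 and 389 CPM in the 4 libraries, 1 day first, with Cd163 and Lyve1 at 0 in the last. The part of such cells in the Mrc1 difference was not tested.

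Of 19 CC and CXC chemokines tested, 9 were down-regulated and none up-regulated, with a median log2 fold change of -1.92, or -1.65 with genes at 0 at 1 week taken at their bound. With 1 library left out 5, 3, 3 and 6 fell, and 8 fell without the marker cells. Ccl4, which recruits leukocytes, was at 916 and 1199.6 CPM at 1 day and 222 and 51.2 CPM at 1 week (log2 fold change -2.86, SE 0.47, adjusted p = 0.00589). Ccl3, its neighbor with shared receptors, was at 681 and 831 CPM at 1 day and 341 and 297 CPM at 1 week (log2 fold change -1.24, SE 0.18, adjusted p = 0.00426). Ccl3 and Ccl4 were called with any 1 library left out, and Ccl4 differed by over 4 times between the 1 week replicates. Ccl9 was at 779 and 683 CPM at 1 day and 113 and 154 CPM at 1 week (log2 fold change -2.48, SE 0.37, adjusted p = 0.00428), a call lost without slice 1 week replicate 1 (-2.27), and the monocyte attractant Ccl12 at 997 and 1678 CPM at 1 day and 391 and 583 CPM at 1 week (log2 fold change -1.47, SE 0.28, adjusted p = 0.0111), a call lost without slice 1 day replicate 2 or slice 1 week replicate 1 (-1.05 and -1.22). The neutrophil attractant Cxcl2 was at 95.4 and 68.5 CPM at 1 day and 16.8 and 5.12 CPM at 1 week (log2 fold change -2.63, SE 0.63, adjusted p = 0.0303), and its call was lost without any 1 of the 4 libraries (-4.01 to -2.36). Ccl24, an eosinophil attractant, was at 32.5 and 36.8 CPM at 1 day and 9.88 and 7.68 CPM at 1 week, a call lost without any 1 of the 4 libraries (-2.2 to -1.83). Cxcl3 was at 13.4 and 10.2 CPM at 1 day and at 0 in both 1 week libraries, at least 5.6-fold lower. Ppbp, the platelet chemokine, was at 9.7 and 15 CPM and then at 0, at least 6.8-fold lower, these bounds being taken from counts pooled over the libraries of a group. Ccl2, the main monocyte chemokine, was at 383 and 567 CPM at 1 day and 39.5 and 209.8 CPM at 1 week without overlap, and it was not called (log2 fold change -2.08, SE 0.72, adjusted p = 0.0929). Calls of Cxcl3 were lost without any 1 of the 4 libraries (adjusted p = 0.0633 to 0.217) and of Ppbp without slice 1 day replicate 2 or slice 1 week replicate 1 (adjusted p = 0.0847 and 0.214).

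The kappaB element, the sequence bound by NF-kB, was searched in chemokine promoters as 3 G, 2 free bases, 3 T and 2 C, on both strands. It was found in 3 of the 13 chemokines with a promoter (23.1%), Cxcl2, Ccl9 and Cxcl3, against 2.09% of tested genes and 1.63% of all promoters. Cxcl2 (chr5:90903649-90903948, plus strand) holds 2 copies and Ccl9 (chr11:83578587-83578886, minus strand) 1 on the opposite strand, in capitals, and both are shown as members that fell and carry the motif.
Cxcl2: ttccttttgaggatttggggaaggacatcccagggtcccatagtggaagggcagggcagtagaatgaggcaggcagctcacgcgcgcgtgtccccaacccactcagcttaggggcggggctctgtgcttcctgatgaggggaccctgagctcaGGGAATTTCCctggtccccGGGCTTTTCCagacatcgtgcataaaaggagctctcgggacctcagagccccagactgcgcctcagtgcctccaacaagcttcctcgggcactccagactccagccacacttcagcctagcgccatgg
Ccl9: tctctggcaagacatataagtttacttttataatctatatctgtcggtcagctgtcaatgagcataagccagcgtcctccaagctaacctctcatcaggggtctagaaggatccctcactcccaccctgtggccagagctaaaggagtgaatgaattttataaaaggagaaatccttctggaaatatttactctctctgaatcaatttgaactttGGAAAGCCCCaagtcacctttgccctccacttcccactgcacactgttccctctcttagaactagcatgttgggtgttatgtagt

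Cytokines and the other readouts of inflammatory signaling changed in single members. Of 21 cytokines and inflammatory enzymes 3 rose and 3 fell, and with 1 library left out 2, 1, 0 and 1 rose and the 3 falls were all lost. Il1b, the interleukin that drives fever and microglial activation, was at 71.8 and 56.3 CPM at 1 day and 23.7 and 5.12 CPM at 1 week and was not called (log2 fold change -1.85, SE 0.58, adjusted p = 0.0713). Tnf was at 25.9 and 37 CPM at 1 day and 14.8 and 2.56 CPM at 1 week and was not called (log2 fold change -1.53, SE 0.75, adjusted p = 0.229). For both genes slice 1 week replicate 2 held the lowest value. The growth factor Igf1 was at 264 and 228 CPM at 1 day and 382 and 414 CPM at 1 week (log2 fold change 0.69, SE 0.15, adjusted p = 0.0188), a call lost without slice 1 day replicate 2, slice 1 week replicate 1 or slice 1 week replicate 2 (0.58, 0.73 and 0.55), and Il16, a ligand of CD4, at 23.9 and 21 CPM at 1 day and 72.1 and 48.6 CPM at 1 week (log2 fold change 1.5, SE 0.23, adjusted p = 0.00471), a call lost without slice 1 week replicate 1 (1.11). Il15 rose by 1.16 on the log2 scale, a call lost without any 1 of the 4 libraries (0.98 to 1.45), and Osm, oncostatin M, fell by 1.24, a call lost without any 1 of the 4 libraries (-2.54 to -0.98). Of 22 NF-kB feedback genes 5 fell and 2 rose, with 3, 2, 2 and 2 falls and neither rise with 1 library left out. Sod2, the mitochondrial superoxide dismutase, was at 201 and 219 CPM at 1 day and 86 and 89.6 CPM at 1 week (log2 fold change -1.26, SE 0.15, adjusted p = 0.00251) and held with any 1 library left out. Nfkbia, the inhibitor that ends NF-kB signaling, was at 216 and 204 CPM at 1 day and 115 and 87 CPM at 1 week (log2 fold change -1.02, SE 0.21, adjusted p = 0.0131), a call lost without slice 1 day replicate 2, slice 1 week replicate 1 or slice 1 week replicate 2 (-1.07, -1.29 and -0.95). Nfkb1 itself was at 29.4 and 30.1 CPM at 1 day and 53.4 and 58.8 CPM at 1 week, higher at 1 week (log2 fold change 0.9, SE 0.19, adjusted p = 0.015), a call lost without any 1 of the 4 libraries (0.76 to 0.96). Tnfaip3, another feedback inhibitor, was not called, with a log2 fold change of -1.11.

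Of 20 Toll-like receptor genes and partners, which sense microbial products and nucleic acids, 2 rose and 1 fell, with 1, 0, 1 and 0 rises with 1 library left out. Cd14, the co-receptor of Tlr4 for endotoxin, was at 1007 and 1010.5 CPM at 1 day and 455 and 404 CPM at 1 week (log2 fold change -1.23, SE 0.18, adjusted p = 0.00431) and held with any 1 library left out. Tlr2 was at 107 and 123 CPM at 1 day and 118 and 99.8 CPM at 1 week and Tlr4 at 10.5 and 11.8 CPM at 1 day and 4.94 and 10.2 CPM at 1 week, with overlapping groups for Tlr2, and neither was called (adjusted p = 0.929 and 0.225). The RNA sensor Tlr7 was at 27.8 and 23.1 CPM at 1 day and 48.4 and 40.9 CPM at 1 week (log2 fold change 0.86, SE 0.24, adjusted p = 0.0469), a call lost without any 1 of the 4 libraries (0.68 to 0.97), and its carrier Unc93b1 at 491 and 431 CPM at 1 day and 801 and 993 CPM at 1 week (log2 fold change 0.96, SE 0.17, adjusted p = 0.00738), a call lost without slice 1 day replicate 2 or slice 1 week replicate 2 (0.86 and 0.72).

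Of 34 interferon-stimulated genes tested 31 had a negative log2 fold change, the median was -1.52, and 3 were called lower, which is a share of 8.8%. That count depended on the fit, with 9 called lower by DESeq2, 9 with the 4 libraries alone and 12 with 8 libraries of 1 study label. It was 8 with a replicate block, 6 without the marker cells and 19 without a filter on low counts. In cells with under 3 UMIs of replication or mitosis genes it was 0 of 29 tested. Isg15, a ubiquitin-like modifier, was at 73.7 and 101 CPM at 1 day and 8.89 and 20.5 CPM at 1 week (log2 fold change -2.82, SE 0.55, adjusted p = 0.0117), a call lost without slice 1 day replicate 2 or slice 1 week replicate 1 (-2.57 and -2.12), and Rtp4 at 42.7 and 36.9 CPM at 1 day and 7.91 and 12.8 CPM at 1 week (log2 fold change -2.08, SE 0.47, adjusted p = 0.0219), a call lost without any 1 of the 4 libraries (-2.4 to -1.65). Irf7, the transcription factor that amplifies interferon, was at 38.3 and 41.2 CPM at 1 day and 9.88 and 0 CPM at 1 week (log2 fold change -2.52, SE 0.62, adjusted p = 0.0303), a call lost without any 1 of the 4 libraries (adjusted p = 0.0592 to 0.103). With 1 library left out 3, 0, 1 and 1 members were called lower.

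Immediate early genes, the first to be transcribed after a stimulus, and AP-1 subunits were partly lower. Of 23 tested, 6 fell and none rose, with a median log2 fold change of -0.88, and the count was 4, 5, 1 and 5 with 1 library left out. Atf3, a stress-induced factor, was at 168 and 149 CPM at 1 day and 65.2 and 33.3 CPM at 1 week (log2 fold change -1.57, SE 0.24, adjusted p = 0.00458) and was called with any 1 library left out. Jun was at 164 and 93.1 CPM at 1 day and 45.5 and 53.7 CPM at 1 week (log2 fold change -1.4, SE 0.3, adjusted p = 0.0164), a call lost without slice 1 day replicate 1, slice 1 week replicate 1 or slice 1 week replicate 2 (-0.95, -1.27 and -1.58), and Junb at 386 and 350.3 CPM at 1 day and 189.7 and 212 CPM at 1 week (log2 fold change -0.88, SE 0.18, adjusted p = 0.0157), a call lost without slice 1 day replicate 1, slice 1 day replicate 2 or slice 1 week replicate 1 (-0.82, -0.95 and -0.81). The phosphatase Dusp1 was at 102 and 58.4 CPM at 1 day and 6.92 and 7.68 CPM at 1 week (log2 fold change -3.47, SE 0.65, adjusted p = 0.00987), a call lost without slice 1 week replicate 1 (-3.39), and Klf6 at 248 and 168 CPM at 1 day and 94.9 and 81.9 CPM at 1 week (log2 fold change -1.22, SE 0.21, adjusted p = 0.00654), a call lost without slice 1 week replicate 1 (-1.36). Dusp5 was at 21.2 and 15.2 CPM at 1 day and at 0 in both 1 week libraries, at least 8.5-fold lower, a call lost without slice 1 week replicate 1 (adjusted p = 0.0964). Fos was at 86.2 and 64.6 CPM at 1 day and 11.9 and 10.2 CPM at 1 week without overlap and was not called (log2 fold change -2.72, SE 1.02, adjusted p = 0.119). Egr1 was at 14.2 and 16.2 CPM at 1 day and 8.89 and 25.6 CPM at 1 week, with slice 1 week replicate 2 the highest of the 4, and was not called (log2 fold change -0.1, SE 0.97, adjusted p = 0.976). The number of members that fell depended on the fit. It was 10 of 22 with the 4 libraries alone, and of 23 it was 11 with 8 libraries of 1 study label. Of 23 it was also 13 without a filter on low counts and 2 with 61 cells per library.

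Of 20 antioxidant genes controlled by NRF2 6 fell and none rose, with a median log2 fold change of -0.84, and the count was 6, 4, 5 and 7 with 1 library left out and 9 without the marker cells. Hmox1, which breaks down heme, was at 1693 and 1936 CPM at 1 day and 511 and 207 CPM at 1 week, 4.95-fold lower (log2 fold change -2.31, SE 0.32, adjusted p = 0.00351). Srxn1, which repairs oxidized peroxiredoxins, was at 79.2 and 68.7 CPM at 1 day and 11.9 and 15.4 CPM at 1 week (log2 fold change -2.51, SE 0.29, adjusted p = 0.00233). The groups stood far apart for both, and each was called with any 1 library left out. Prdx1, an abundant peroxiredoxin, was at 1967 and 1981 CPM at 1 day and 880.5 and 1008 CPM at 1 week (log2 fold change -1.06, SE 0.21, adjusted p = 0.0117), a call lost without slice 1 day replicate 2 or slice 1 week replicate 1 (-1.07 and -0.99). Gclm, the regulatory chain of glutathione synthesis, was at 119 and 124 CPM at 1 day and 52.4 and 43.5 CPM at 1 week (log2 fold change -1.31, SE 0.21, adjusted p = 0.00527), a call lost without slice 1 week replicate 1 (-1.5), and the reductase Txnrd1 fell by 1.04 on the log2 scale, a call lost without slice 1 day replicate 2 or slice 1 week replicate 1 (-1.01 and -0.75). Sqstm1, the autophagy adaptor p62, fell by 1.02 and held throughout. Nqo1 stayed under 4 CPM in all 4 libraries.

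The AP-1 site TGANTCA, which is also part of some of the antioxidant response elements bound by NRF2, was searched on both strands, and the antioxidant response element itself was not. It was present in 4 of the 16 NRF2 target genes with a promoter (25%), Srxn1, Prdx1, Me1 and Osgin1, against 6.15% of tested genes and 7.81% of all promoters. Srxn1 (chr2:152105274-152105573, plus strand) and Prdx1 (chr4:116685349-116685648, plus strand) each hold 2 copies in capitals, and both fell. A match to these letters does not show binding.
Srxn1: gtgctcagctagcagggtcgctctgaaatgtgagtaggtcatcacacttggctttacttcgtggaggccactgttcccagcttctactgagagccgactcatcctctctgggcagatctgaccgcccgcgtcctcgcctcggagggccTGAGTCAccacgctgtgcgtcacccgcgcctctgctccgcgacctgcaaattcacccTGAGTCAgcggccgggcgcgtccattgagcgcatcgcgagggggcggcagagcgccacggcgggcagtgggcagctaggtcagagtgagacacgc
Prdx1: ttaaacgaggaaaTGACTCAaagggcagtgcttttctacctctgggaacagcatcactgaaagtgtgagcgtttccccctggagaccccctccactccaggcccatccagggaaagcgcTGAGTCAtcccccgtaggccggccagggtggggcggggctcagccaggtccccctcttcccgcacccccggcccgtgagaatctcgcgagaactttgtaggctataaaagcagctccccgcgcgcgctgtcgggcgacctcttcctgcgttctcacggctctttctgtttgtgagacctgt

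Iron genes included Hmox1 and were lower in 4 of 20, with 1 rise. Fth1, the heavy chain of the iron store ferritin, was at 11339 and 11290 CPM at 1 day and 8189 and 6353 CPM at 1 week (log2 fold change -0.64, SE 0.16, adjusted p = 0.0329), a call lost without any 1 of the 4 libraries (-0.85 to -0.55), whereas the light chain Ftl1 was at 18969 and 17335 CPM at 1 day and 12541 and 13650 CPM at 1 week and was not called (log2 fold change -0.47, SE 0.15, adjusted p = 0.0681). Trf, the iron carrier transferrin, was at 511 and 328 CPM at 1 day and 1134 and 1167 CPM at 1 week and rose (log2 fold change 1.46, SE 0.2, adjusted p = 0.00342), holding with any 1 library left out. The iron importer Slc11a2 fell by 0.98 on the log2 scale, a call lost without any 1 of the 4 libraries (-1.28 to -0.93), and the zinc and iron transporter Slc39a14 fell by 1.61, a call lost without slice 1 day replicate 2, slice 1 week replicate 1 or slice 1 week replicate 2 (-1.44, -1.65 and -1.67). The metallothioneins Mt1 and Mt2, which bind zinc, were at 1566 and 1603 CPM at 1 day and 1087 and 929 CPM at 1 week and at 361 and 374 CPM at 1 day and 352 and 118 CPM at 1 week, and neither was called. With 1 library left out 2, 1, 1 and 1 iron genes fell.

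With all 10 libraries in the fit, the proteasome had the largest share of falling genes among the lists, a rank that it did not keep in every alternative fit. Of 38 subunit genes, 23 fell and none rose, 37 had a negative log2 fold change, and the median was -0.65. The count was 15, 4, 2 and 13 with 1 library left out, so that without slice 1 week replicate 1 only 2 calls stood, and it was 24 without the marker cells and 14 without cells that held under 0.2% of their UMIs in Malat1, a nuclear RNA. Psmd14, the deubiquitinase of the regulatory lid, was at 141 and 152 CPM at 1 day and 74.1 and 61.4 CPM at 1 week (log2 fold change -1.08, SE 0.18, adjusted p = 0.00572). Psmc6, an ATPase of the base, was at 161 and 158 CPM at 1 day and 82 and 74.2 CPM at 1 week (log2 fold change -1.02, SE 0.14, adjusted p = 0.00361). These 2 subunits were called with any 1 library left out. Psmd7 fell by 1.22 on the log2 scale, a call lost without slice 1 week replicate 1 (-1.01), and the core subunit Psma6 fell by 1.06, a call lost without slice 1 week replicate 1 (-1.04).

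Chaperones of the cytosol and mitochondria were partly lower. Of 27 heat shock genes 7 fell and none rose, with a median of -0.71 and counts of 6, 2, 2 and 8 with 1 library left out. Hsp90aa1, the inducible Hsp90, was at 452 and 450.4 CPM at 1 day and 146 and 182 CPM at 1 week (log2 fold change -1.48, SE 0.2, adjusted p = 0.00342). Hspd1, the mitochondrial Hsp60, was at 244 and 269 CPM at 1 day and 69.2 and 123 CPM at 1 week (log2 fold change -1.49, SE 0.23, adjusted p = 0.00469). Both were called with any 1 library left out. The Hsp70 partner Hspa9 of mitochondria fell by 0.98, a call lost without slice 1 day replicate 2 or slice 1 week replicate 1 (-0.96 and -1.12), and the co-chaperone Fkbp4 fell by 1.24, a call lost without slice 1 day replicate 2 or slice 1 week replicate 1 (-1.11 and -0.78). Hspa8, the constitutive Hsp70, was at 1659 and 1863 CPM at 1 day and 1513 and 1714 CPM at 1 week with overlapping groups and was not called (log2 fold change -0.13, SE 0.19, adjusted p = 0.727). Hspa1a was at 159 and 9.07 CPM at 1 day and at 0 in both 1 week libraries, so that its difference rested on slice 1 day replicate 1, and it was not called (adjusted p = 0.182). Of 33 genes of ATF4 and the unfolded protein response 5 fell, with 2, 1, 3 and 1 falls with 1 library left out and 9 without the marker cells. Mthfd2, of mitochondrial folate metabolism, was at 71.6 and 71.1 CPM at 1 day and 38.5 and 25.6 CPM at 1 week (log2 fold change -1.07, SE 0.23, adjusted p = 0.0184), a call lost without any 1 of the 4 libraries (-1.5 to -0.97). The amino acid transporter Slc7a5 fell by 1.2, a call lost without any 1 of the 4 libraries (-1.61 to -1.14). The chaperone Hspa5 of the endoplasmic reticulum and the transcription factor Atf4 were not called, with log2 fold changes of -0.42 and -0.96.

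Genes of glucose uptake and glycolysis were partly lower. Of 20 in the list 6 fell and none rose, with a median log2 fold change of -0.32 and counts of 5, 3, 6 and 4 with 1 library left out. Slc2a1, the glucose transporter, was at 202 and 179.6 CPM at 1 day and 82 and 46.1 CPM at 1 week (log2 fold change -1.49, SE 0.21, adjusted p = 0.00392). Pkm, pyruvate kinase, was at 2836 and 2890.2 CPM at 1 day and 1471 and 1085 CPM at 1 week (log2 fold change -1.16, SE 0.17, adjusted p = 0.00442). Ldha, which makes lactate, was at 1757 and 1883 CPM at 1 day and 976 and 747 CPM at 1 week (log2 fold change -1.07, SE 0.17, adjusted p = 0.00522). Each of the 3 was lower in both 1 week libraries and was called with any 1 library left out. The lactate exporter Slc16a3 fell by 1.3 on the log2 scale, a call lost without slice 1 day replicate 2 (-1.34), Eno1 fell by 0.97, a call lost without slice 1 day replicate 2 or slice 1 week replicate 2 (-0.98 and -0.89), and Tpi1 fell by 0.83, a call lost without slice 1 day replicate 1, slice 1 day replicate 2 or slice 1 week replicate 2 (-0.86, -0.82 and -0.67). Hk2, the entry enzyme, was at 126 and 119 CPM at 1 day and 136 and 156 CPM at 1 week and was not called (log2 fold change 0.24, SE 0.25, adjusted p = 0.592), and Pgk1, at 137 and 352 CPM at 1 day and 175 and 92.1 CPM at 1 week, differed more within than between the groups. Of 21 hypoxia genes 2 fell, Slc2a1 and Mif, the latter from 1593 and 1561 to 889 and 647 CPM (log2 fold change -1.03, SE 0.22, adjusted p = 0.0178), a call lost without any 1 of the 4 libraries (-1.3 to -0.91). Of 82 nuclear genes of oxidative phosphorylation 7 fell and 2 rose, with a median of -0.23 and 2, 2, 1 and 5 falls with 1 library left out, or 3 without Malat1-poor cells, described with the proteasome. Cycs, cytochrome c, was at 347 and 401 CPM at 1 day and 142 and 138 CPM at 1 week (log2 fold change -1.41, SE 0.17, adjusted p = 0.00251), called with any 1 library left out. The mitochondrially encoded mt-Co1 was at 2167 and 2199.7 CPM at 1 day and 3683 and 4286 CPM at 1 week (log2 fold change 0.87, SE 0.17, adjusted p = 0.0128), a call lost without any 1 of the 4 libraries (0.67 to 0.95), the only 1 of 13 mitochondrial genes called.

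Of 86 cytosolic ribosomal protein genes 2 fell, the ribosomal protein-like Rpl7l1 and Rps27l, and the median was 0.01. Of 38 replication genes 2 fell with a median of -0.77, and of 41 mitosis genes 2 fell with a median of -0.49, counts that were 1, 0, 0 and 1 and 3, 0, 0 and 0 with 1 library left out. Mki67, the proliferation marker, was at 9.44 and 19.8 CPM at 1 day and 20.8 and 30.7 CPM at 1 week and was not called (log2 fold change 0.65, SE 0.43, adjusted p = 0.376), nor was Top2a at 16.5 and 38 CPM at 1 day and 10.9 and 7.68 CPM at 1 week (log2 fold change -1.51, SE 0.58, adjusted p = 0.124). The 2 markers thus lay in opposite directions between the group means. Of 16 MHC class I genes edgeR called 0, with 0 and 0 members higher and lower at an unadjusted p under 0.05 and 0 called by DESeq2, and B2m, their shared light chain, was at 3257 and 2448 CPM at 1 day and 2495 and 2364 CPM at 1 week. Of 9 MHC class II genes 2 rose (3, 1, 0 and 1 with 1 library left out) and 1, Cd74, fell, and H2-Ab1 was at 68.7 and 51.8 CPM at 1 day and 52.4 and 25.6 CPM at 1 week, with overlapping groups. Of 29 cholesterol genes 1 rose, the LDL receptor ligase Mylip, a call lost without slice 1 day replicate 2, slice 1 week replicate 1 or slice 1 week replicate 2 (0.78, 0.79 and 0.88), and the median was below 0.01 in size. Of 16 chemokine receptors 2 rose, Cx3cr1 and the chemerin receptor Cmklr1, at 16.5 and 20.1 CPM at 1 day and 49.4 and 51.2 CPM at 1 week (log2 fold change 1.43, SE 0.25, adjusted p = 0.00764), a call lost without slice 1 week replicate 1 (1.45). Of 33 annexin, S100 and actin genes, 1 rose and 2 fell, the tubulins Tubb6 and Tuba1c, and of 33 histone genes 1 rose. Of 21 arginine and alternative activation genes 2 rose and 5 fell (1, 1, 1 and 2 falls with 1 library left out).

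**Figure D3:**
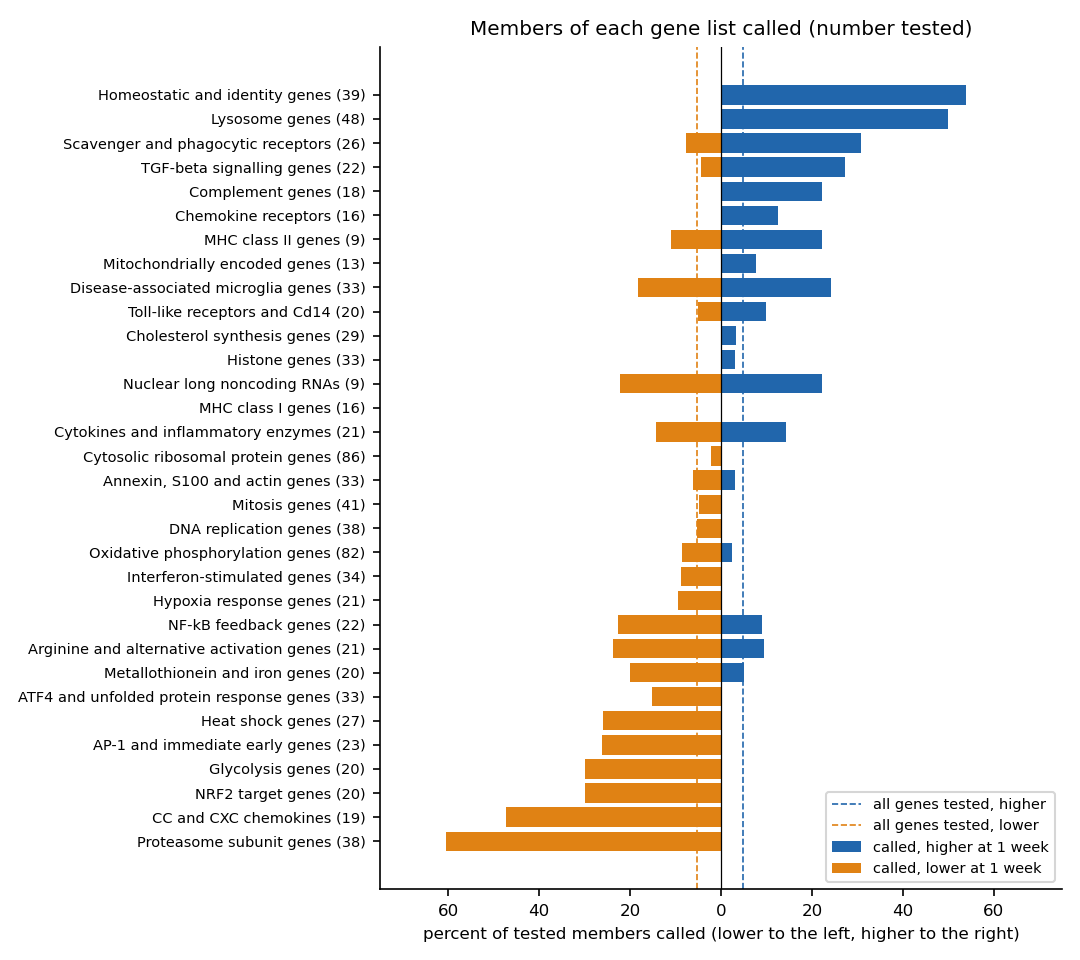
For each gene list the bars give the percent of tested members called higher (to the right) and lower (to the left) at 1 week, and the vertical lines give the background of all genes, 4.91% and 5.25%. Proteasome genes reach furthest on the lower side with 23 of 38, and identity and lysosomal genes on the higher side with 21 of 39 and 24 of 48.

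RNA of brain cells other than microglia was present at 1 week. The neuronal noncoding RNA Meg3 was at 35.6 and 12 CPM at 1 day and 319 and 512 CPM at 1 week (log2 fold change 4.19, SE 0.59, adjusted p = 0.00523), the largest rise of all genes named by size. Snhg11, another neuronal noncoding RNA, was at 12.3 and 2.27 CPM at 1 day and 126 and 105 CPM at 1 week (log2 fold change 4.21, SE 0.71, adjusted p = 0.00618), a call lost without slice 1 week replicate 1 (3.97). Over both 1 week libraries 5 cells held over 1% of their UMIs in neuron markers, against 1 at 1 day. Without marker cells the log2 fold changes were 1.09 for Meg3 and 2.17 for Snhg11, and neither was called. Both genes are among the neuron markers that chose the cells left out, so lower values without those cells were fixed by the choice. Markers of astrocytes stayed between 14.9 and 28.5 CPM in sum, and those of lymphocytes at most at 4.63 CPM. Monocyte markers summed to 615 and 819 CPM at 1 day and to 1232 and 394 CPM at 1 week.

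The spread over single cells was described per library. Over cells other than neutrophil-marker cells, which still held the low share of neutrophil RNA given above, the identity genes took a median of 2.67% and 2.63% of a cell's UMIs at 1 day and 5.29% and 5.64% at 1 week. The lower tail did not move with it: the 10th percentile was 1.25% and 1.37% at 1 day and 1.18% and 0.984% at 1 week. Lysosomal genes had medians of 3.34% and 3.26% at 1 day and of 4.82% and 4.94% at 1 week. Apoe alone had a median of 0.616% and 0.561% of UMIs at 1 day and of 4.81% and 4.59% at 1 week, and the 10th percentile at 1 week, 1.22% and 1.12%, lay near the 75th percentile at 1 day, 1.19% and 0.905%. Proteasome genes moved from 0.855% and 0.946% to 0.542% and 0.546%, and chemokines from 0.364% and 0.437% to 0.110% and 0.121%. These are descriptions with 2 values per group, for which the smallest two-sided permutation p is 0.333.

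**Figure D4:**
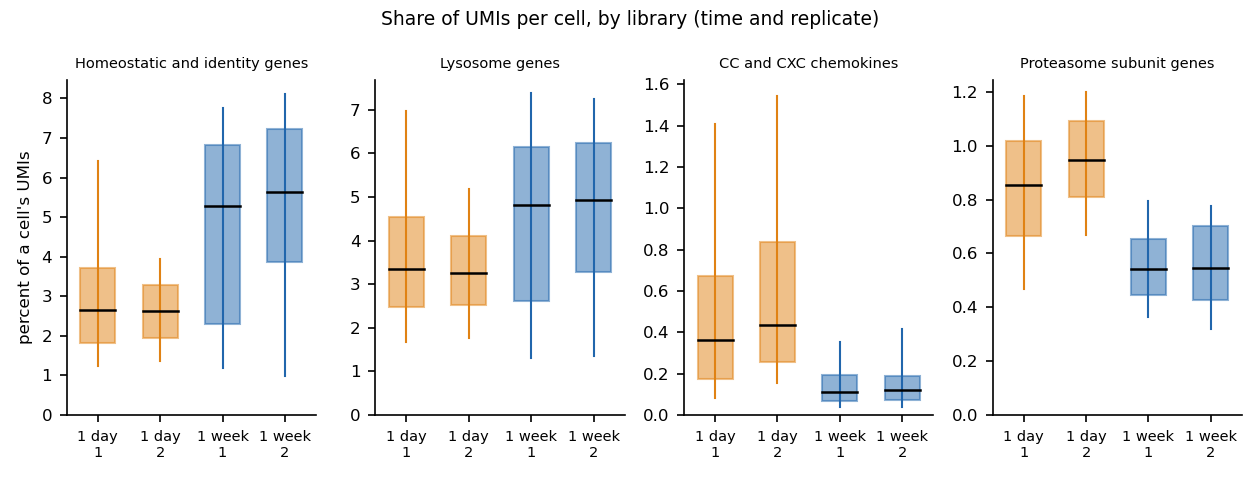
Percent of a cell's UMIs in 4 gene groups, over cells other than neutrophil-marker cells, boxes spanning the 25th to 75th percentile with the median as a line and lines from the 10th to the 90th percentile, 1 box per library. Medians of identity genes lie at 2.67% and 2.63% at 1 day and at 5.29% and 5.64% at 1 week, with wide boxes at 1 week.

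Shares of cells with a UMI were counted after each cell was thinned to 2500 UMIs, which left 449 and 997 cells at 1 day and 130 and 46 at 1 week and set aside 69, 17, 18 and 15 shallower cells. P2ry12 was found in 24.9% (95% exact binomial interval 21 to 29.2) and 15.5% (13.4 to 17.9) of cells at 1 day and in 50.8% (41.9 to 59.6) and 58.7% (43.2 to 73) at 1 week. Neutrophil-marker cells, which should lack it, showed 9.5%, 7.2% and 17.4% in the first 3 libraries, from 21, 97 and 23 cells, and slice 1 week replicate 2 had none of that depth. The values by cell class come from a second random thinning, in which the same 46 cells of slice 1 week replicate 2 gave 47.8% (32.9 to 63.1) for P2ry12. Median depths before thinning were 3231, 5709 and 4569 UMIs in those cells and 7220, 8919 and 7823 in the others. Ccl4 was found in 39% (34.4 to 43.7) and 57.7% (54.5 to 60.8) of cells at 1 day and in 15.4% (9.7 to 22.8) and 6.5% (1.4 to 17.9) at 1 week, against 23.8%, 47.4% and 8.7% of neutrophil-marker cells. The last of these rests on 2 of 23 cells of slice 1 week replicate 1, and slice 1 week replicate 2 gave no such value. Whether neutrophil-marker cells make Ccl4 themselves was not tested, so these shares cannot be read as a background of free RNA. Cd36 was found in 24.7% (20.8 to 29) and 28.8% (26.0 to 31.7) and then in 6.2% (2.7 to 11.8) and 4.3% (0.5 to 14.8), against 4.8%, 11.3% and 0.0% of neutrophil-marker cells, the last being 0 of 23 cells with an interval up to 14.8%. Apoe was found in 97.8% to 100% of cells of each library and in 97.9% to 100% of neutrophil-marker cells, so that its share does not separate expression from free RNA.

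Levels at 3 weeks, in the 2 libraries of slices kept longer, were set beside those at 1 week. That later comparison shares the 1 week libraries with the first, and only 1 of its 2 later libraries, replicate 2, carries the study label of the others. In it 2.23% of genes rose and 3.49% fell. Apoe was at 27036 and 20517 CPM at 3 weeks, lower than at 1 week (log2 fold change -1.45, adjusted p = 0.00555) and above 1 day in both libraries. Gpx3 was at 48.9 and 98.5 CPM (log2 fold change -2.98, adjusted p = 0.00135) and Hpgd at 36.6 and 64.1 CPM (-2.6, adjusted p = 0.00248), both overlapping the 1 day values. Ccl3 and Ccl4 were at 870.3 and 732 and at 955 and 627 CPM, again higher than at 1 week (adjusted p = 0.00369 and 0.0165). Atf3 was at 113 and 139 CPM and Lpl at 1124 and 1593 CPM, also higher than at 1 week (adjusted p = 0.0168 and 0.0418). Cd36 went on falling, to 10.5 and 9.04 CPM (-1.41, adjusted p = 0.0191). Ctsd was at 25962 and 19600 CPM, higher than at 1 week (adjusted p = 0.00322). Cst7, not called early, was at 917 and 1669 CPM (4.47, adjusted p = 0.000666). P2ry12 was at 978 and 818 CPM, not called against 1 week (adjusted p = 0.0532), and Sall1 at 49.2 and 59.9 CPM (adjusted p = 0.905). The neutrophil genes S100a8 and S100a9 were at most at 3.23 CPM at 3 weeks.

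**Figure D5:**
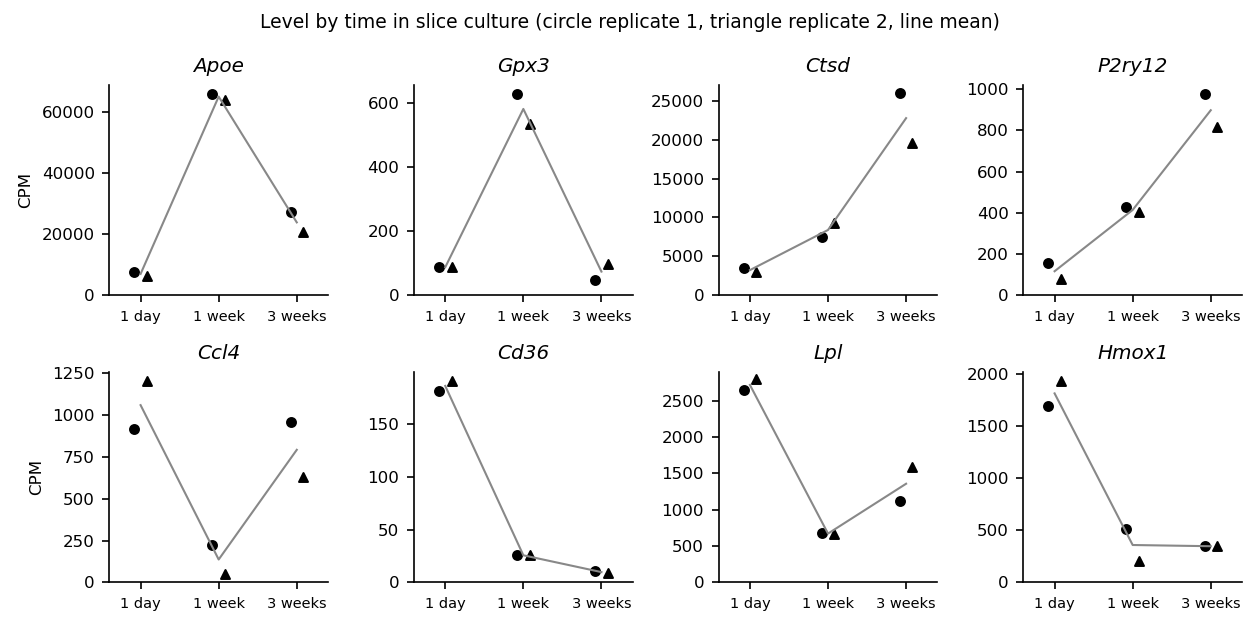
CPM (linear axis from 0) of 8 genes at 1 day, 1 week and 3 weeks of culture, circles and triangles being replicates 1 and 2 and the line joining group means. Apoe and Gpx3 are highest at 1 week, Ccl4 is lowest there, Ctsd climbs throughout and Cd36 drops throughout.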

How the data were processed

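Single-cell RNA-seq libraries (10x Genomics 3′ chemistry) of sorted slice microglia were used. The authors deposited unnormalized UMI counts, 1 table of genes by barcodes per library, made with Cell Ranger 1.3.0 on mm10 per the submitters' processing notes. The annotation was not given in the sources used here, and a gene missing from a library's table was taken as 0. Cells within the study's 3 limits were kept and counts were summed per library. The quasi-likelihood test of edgeR 4.0.16 under R 4.3.3 was run on these sums after TMM scaling and a filterByExpr minimum of 10 counts, in 1 model of all 10 libraries in 5 groups with a common spread (biological coefficient of variation 18.3%). Genes were called at FDR under 0.05 (Benjamini-Hochberg over all genes tested) and fold-change above 1.5, the thresholds of the study. CPM per gene are scaled by TMM factors, and sums over marker lists are scaled to 1000000 UMIs of the library without them. SE is that of the fitted log2 fold change.

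Genes named were the 15 largest rises and falls among called genes with mean log2 CPM of at least 5, fixed anchor genes of 33 lists and 11 marker lists, and up to 6 called members per list. The members and lists were chosen with earlier results of these data known, so list counts are descriptions, read against the share of all genes called, and Meg3 counts under several parts of the rule. Genes mentioned by a motif match alone (Me1, Osgin1) were named for that match. Alternatives were another scaling, DESeq2 1.42.0, other filters and sets of libraries, thinned or equal numbers of cells, each library left out, the replicate number as a block, and 4 added after the data were seen. Neutrophil-marker cells were kept. No doublet caller was run. Some genes covered by the naming rule are not reported here. Promoters come from RefSeq. Shares of cells have 95% exact binomial intervals, which cover counting error only.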

Additional observations from a re-analysis of the deposited data

How the results depend on the processing

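Every named gene that was called kept its direction in the fits with 1 library left out, with other scaling, DESeq2, filters, sets of libraries or thinned cells, wherever it had a value. Without cycling cells (at least 3 UMIs of replication or mitosis genes, 63.93% to 90.43% of cells) 7 genes were called higher and 10 lower, and 14 named genes turned direction, none of them called: Bambi -0.36, Crybb1 -0.20, Cst3 -0.21, H2-DMb1 -0.41, Il16 -0.28, Nfkb1 -0.78, Sall1 -7.89, Selplg -0.94, Slc2a5 -0.65, Tmem119 -0.44, mt-Co1 -0.13, Hspa9 0.25, Psmd14 0.14 and Shmt2 0.30 on the log2 scale. The Sall1 value is fitted against 1 week libraries at 0, where too few UMIs remain to show its level at 1 day, and gives no size or direction. That setting keeps few cells, and the cause was not tested. Thinning to 2500 UMIs gave 137 higher and 175 lower calls and 61 cells per library gave 175 and 141, each with fewer UMIs. Without a filter on low counts 817 genes were higher and 1162 lower of 18226 tested. Lower calls there also rose among members tested in both fits, with 19 of 34 interferon-stimulated genes called lower against 3 with the filter. With 1 library left out calls ran from 104 to 349 higher and from 114 to 499 lower. Library size alone gave 475 higher and 826 lower with a median of -0.099 over all genes. DESeq2 gave 797 and 651, the 4 libraries alone 561 and 528, and 8 libraries of 1 study label 729 and 809. Without Malat1-poor cells there were 477 and 488 calls. With a replicate block 517 genes were higher and 566 lower, 494 and 532 of them shared, and 146 of 156 named calls stood. The labels do not say that a replicate number marks shared pups, and replicate differences at the 2 times were not correlated across genes (-0.073), although replicate 1 carried Xist and replicate 2 Ddx3y at both times. Without thinning P2ry12 was found in 41.7% and 42.2% of cells at 1 day and 61.5% and 63.9% at 1 week, Ccl4 in 54.6%, 86.5%, 30.4% and 14.8%, Cd36 in 39.6%, 54.5%, 12.2% and 8.2%, and Apoe in 98.8%, 100%, 100% and 100%. Leaving out cells with 3 UMIs of neutrophil or monocyte markers could not be run, since it left 0 cells in slice 1 day replicate 2 and slice 1 week replicate 1.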

Other observations

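Cells with under 0.2% of their UMIs in Malat1, a nuclear RNA, made up 28.57% and 34.91% of cells at 1 day and 21.62% and 29.51% at 1 week. At 1 week these cells were shallow, with medians of 3690 and 3520.5 UMIs against 7585 and 7812 in the rest, whereas at 1 day the medians were 6579 and 7855 against 6383.5 and 8784.5. Malat1 itself fell from 16500 and 14616 to 10859 and 7842 CPM (log2 fold change -0.73, SE 0.2, adjusted p = 0.0465), a call lost without any 1 of the 4 libraries (-1.01 to -0.6).

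Each group held 1 library high in Xist, the RNA of the inactive X chromosome. Xist was at 675 and 2.78 CPM at 1 day and 779.7 and 0 CPM at 1 week, and the Y-linked Ddx3y at 0 and 28.4 CPM at 1 day and 0 and 12.8 CPM at 1 week, so that replicate 1 carried Xist at both times and replicate 2 carried Ddx3y. Neither was called.

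Glycolysis genes were unevenly spread among cells in all 4 libraries. Over cells other than neutrophil-marker cells the median was 1.03% and 1.04% of UMIs at 1 day and 0.467% and 0.474% at 1 week, while the 90th percentile was 3.35% and 3.33% at 1 day and 3.28% and 2.27% at 1 week. The upper tail of slice 1 week replicate 1 therefore lay close to that of the 1 day libraries.

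Chil3, a chitinase-like protein of neutrophils and monocytes, was at 6.29 and 184 CPM at 1 day and 752 and 0 CPM at 1 week, and Ly6c2, of inflammatory monocytes, at 0.786 and 47.3 CPM at 1 day and 94.9 and 0 CPM at 1 week. Both were listed at 0 in slice 1 week replicate 2 and both were highest in slice 1 week replicate 1, the library with most neutrophil RNA, and neither was called.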
